A study of Mus musculus with 16 samples.

Results

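In 2 of the 16 nascent RNA libraries of the series, c.del.B11 and ac.del.E4, chromosome 3 gave 33.8% and 36.3% of its reads from the 129 copy, where the other 14 libraries gave 52.7 to 54.3%. These 2 libraries were chosen by that share and set against the 2 libraries labelled ab.del, D10 and D12. The table held 1166 gene symbols of chromosome 3 and 22664 of the other autosomes, and 500 chromosome 3 genes averaged at least 1 CPM on each copy over the 16 libraries. CPM here counts the reads of a gene on one copy, scaled so that the library's column for that copy sums to 1000000. Bru-seq measures newly made RNA: living cells take up bromouridine, here 2 mM for 30 min, and the labelled RNA is pulled down and sequenced. Reads that overlap a base at which the strains differ are then assigned to the 129 or the castaneus (cast) copy.

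All 16 libraries came from mouse embryonic stem cells of a cas/129 hybrid line, which the growth notes place in medium with LIF and 2i, a pair of kinase inhibitors. F121-9, the unedited line by its label, has 2 libraries. The letters a, b and c in the other labels name deleted sites, so that c.del.B11 lacks site c, ac.del.E4 lacks a and c, and ab.del.D10 and ab.del.D12 lack a and b. The labels give neither the position of the sites nor the edited copy, and the code that ends each name may be a clone. Nothing says that 2 libraries with 1 label are separate cultures, so p-values measure the spread between libraries, which may be technical. Between c.del.B11 and ac.del.E4 that spread also takes in their difference at site a. DNA copy number was not measured in these data, and "extra dosage" below refers to RNA.

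A gain of a whole chromosome is a common event in cultured embryonic stem cells. RNA output of a gained chromosome usually follows copy number, while dosage compensation is the name for any return of output towards that of the balanced state. In a hybrid line the read assignment shows which parental copy carries the change and whether the other copy moves.

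Autosomal reads assigned to a copy ran from 8.60 M to 31.3 M per library. The comparison has limits set by the design. Both libraries of interest lack site c and keep site b, and both ab.del libraries lack site b and keep site c. Site a is kept in c.del.B11 but missing in ac.del.E4 and in both ab.del libraries. On chromosome X, c.del.B11 and ac.del.E4 gave 99.8% and 99.8% of reads from 129, whereas ab.del.D10 and ab.del.D12 gave 1.05% and 1.07%. These differences cannot be told apart from chromosome 3 dosage. The library c.del.A12, which shares the label c.del, has a chromosome 3 share of 53.5% and serves as a second reference. The library b.del.D10 pairs a 129 chromosome X (99.8% of X reads from 129) with a chromosome 3 share of 52.7%. The 8 embryonic stem cell markers summed to 1569.5 to 1967 CPM in the 2 libraries and to 1601 to 2132 CPM in ab.del. Sums of the primitive endoderm markers were 5.48 to 10.7 and 9.56 to 12.9 CPM, and those of fibroblast markers 0.329 to 0.755 and 0.422 to 0.436 CPM, with 2 of 6 fibroblast markers at 0 in all 4 libraries. Neural, mesoderm and trophoblast markers summed to at most 20.1, 5.70 and 27.2 CPM in any of the 4.

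The chromosome 3 share from 129 was 33.8% in c.del.B11 (95% Wilson interval 33.7 to 33.9%, counting error only) and 36.3% in ac.del.E4 (36.3 to 36.4%). The median of the other 14 libraries was 53.5%, and both ab.del libraries were at 53.6%. Doubling the cast reads of a library at that median would give 36.6%. No other autosome departed in this way in both libraries. Chromosome 8 stood at 47.5% in c.del.B11 and at 51.3% in ac.del.E4.

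**Figure D1:**
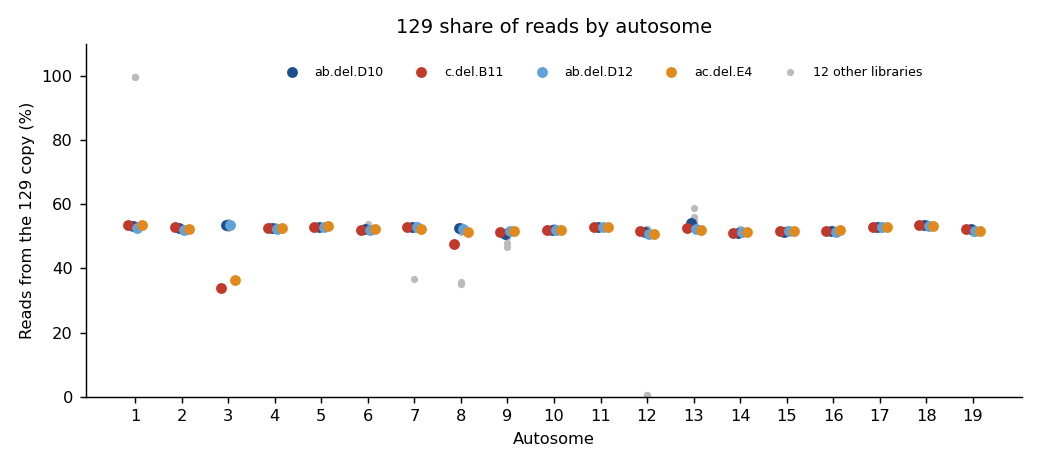
Share of allele-assigned reads from the 129 copy (y axis, %) on each of the 19 autosomes (x axis) in 16 libraries; coloured points are the 4 compared libraries and grey points the 12 others. On chromosome 3 c.del.B11 and ac.del.E4 stand at 33.8% and 36.3%, below the other 14; grey points far from the rest on chromosomes 1, 7, 8 and 12 belong to 4k.b.c.G12 and a.del.53.

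The change lay on the cast side. Chromosome 3 made up 9.07% of autosomal cast reads in c.del.B11 and 9.43% in ac.del.E4, against 4.78% and 5.01% in ab.del.D10 and ab.del.D12. It made up 4.44% and 5.13% of autosomal 129 reads, against 4.98% and 5.28%. Over both copies chromosome 3 took 6.71% and 7.23% of autosomal reads, above the 4.79 to 5.36% of the other 14 libraries.

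Gene by gene, cast RNA of chromosome 3 was close to doubled in both libraries. Each library was first compared with the ab.del library from the same run of sample numbers (c.del.B11 with D10, ac.del.E4 with D12), so that the pairs share no library. What separates the 2 runs is not given in the labels, and they are called deposit blocks here. Differences are of log2(CPM + 0.1), less the median difference of 9770 genes of other autosomes, because each deposited column was scaled to its own total. That unscaled median lay between -0.04 and -0.10 in these pairs. For cast, the median over the 500 chromosome 3 genes was 0.99 (1.99-fold) in the c.del.B11 pair and 0.97 (1.96-fold) in the ac.del.E4 pair. The choice of libraries fixed this direction, so it is a description and carries no test.

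The 129 copy was not raised. Its median difference was -0.19 (0.879-fold) in c.del.B11 and -0.04 (0.970-fold) in ac.del.E4. Medians of single other autosomes in the same pairs lay between -0.04 and 0.05 for the c.del.B11 pair and between -0.04 and 0.05 for the ac.del.E4 pair, so the c.del.B11 value lay well below that range and the ac.del.E4 value, before rounding, just below it. Against F121-9 the 129 medians were -0.16 and 0.00, and against c.del.A12 that of c.del.B11 was -0.15. For c.del.B11 single other autosomes ran from -0.08 to 0.06 against F121-9 and from -0.14 to 0.17 against c.del.A12. The -0.15 thus lay just below the second of these ranges. The 129 output of chromosome 3 was below the median of the other autosomes in c.del.B11 with each of 3 references. These comparisons all share the c.del.B11 library. In ac.del.E4 that output was below by 0.04 or less. Over both libraries the median was -0.10, and it was -0.03 without c.del.B11 and -0.21 without ac.del.E4.

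Output summed over both copies came close to that of 3 copies against 2. The median difference of the mean of both copies was 0.52 (1.44-fold) in c.del.B11 and 0.54 (1.46-fold) in ac.del.E4, where doubling 1 of 2 equal copies would give 0.58. Against c.del.A12 the value for c.del.B11 was 0.51, and against F121-9 the 2 libraries gave 0.52 and 0.54. The 2 ab.del libraries differed from each other by 0.01 on this measure, 0.03 on cast and 0.03 on 129.

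**Figure D2:**
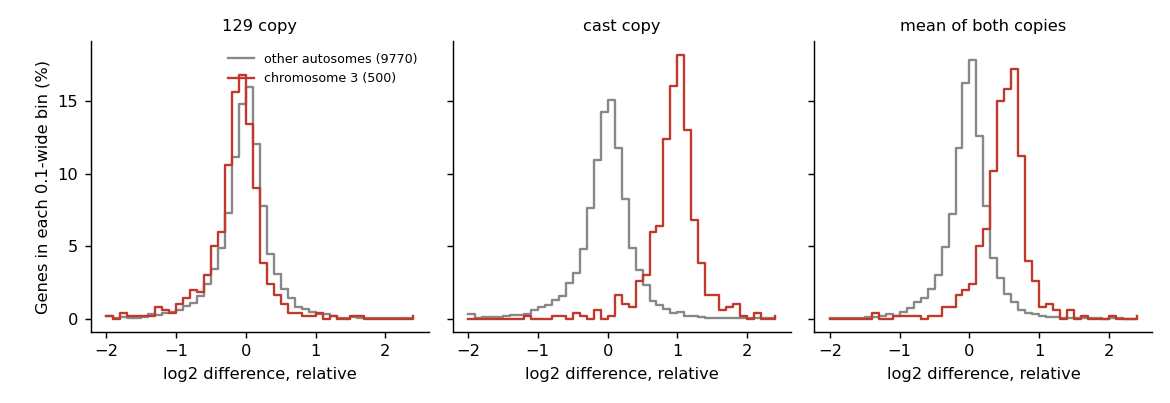
Distribution of gene differences, mean of c.del.B11 and ac.del.E4 minus mean of ab.del, in log2(CPM + 0.1) relative to the median of other autosomes (x axis; values beyond the axis are counted in its end bins), as percent of genes per bin (y axis) for 500 chromosome 3 genes and 9770 genes of other autosomes. Chromosome 3 has medians of -0.10 on 129, 0.99 on cast and 0.54 on the mean of both, with a spread like that of the other autosomes.

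Counts of genes whose libraries did not overlap gave the same order. On cast, 402 of 500 chromosome 3 genes (80.4%) were above both ab.del libraries in both libraries of interest and 4 were below. Among 12718 genes of the other autosomes, 8.96% were above and 14.1% below on cast. On 129, 19 of 500 were above and 108 below (21.6%), beside 7.7% above and 16.4% below elsewhere. On the mean of both copies 242 were above (48.4%) and 8 below, beside 7.6% and 15.2%. The chromosome 3 counts restate the contrast by which the libraries were picked. The 129 share was lower in both libraries than in both ab.del libraries for 463 of the 500 single genes.

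Few chromosome 3 genes were at or below the balanced level in both pairs. The interquartile range of the differences, on the mean of both copies, was 0.321 on chromosome 3 and 0.320 on the other autosomes. Genes of chromosome 3 therefore scattered around their median about as much as other genes around 0. Genes not raised were counted as those with a difference under 0.2 in both pairs, which takes in genes below the balanced level, and 28 of 500 genes (5.60%) met this. Of the other autosomes' genes 60.4% met it, and 6.01% would if each were moved up by the chromosome 3 median. Among genes with a mean of at least 10 CPM on each copy, 6 of 298 (2.01%) met it, beside 2.69% of other genes moved up in the same way. A count of genes near the balanced level, with a difference between -0.2 and 0.2 in both pairs, was added after the data were seen. It held 11 of 500 genes (2.20%), beside 29.7% of other genes and 2.53% of those genes moved up.

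The 6 better transcribed genes that were not raised were Chmp4c (an ESCRT subunit), Tnik (a kinase of the WNT pathway), Plch1 (a phospholipase C), Arhgef2 (a guanine nucleotide exchange factor), Bcar3 (an adaptor at adhesions) and St6galnac3 (a sialyltransferase). They were named after their values were seen, as the few that met the limit. In the 12 libraries outside the comparison, the cast copy supplied 23.0%, 50.6%, 28.4%, 39.8%, 26.7% and 32.5% of their RNA in that order, so that of Tnik alone lay above 40%. Chmp4c, Tnik and Plch1 lay within 0.2 of the balanced level in both pairs, 3 of 298 genes (1.01%). Arhgef2 and Bcar3 were lower in the c.del.B11 pair, at -0.32 and -0.31, and St6galnac3 in the ac.del.E4 pair, at -0.23. Tnik gave 82.6 and 92.1 CPM on cast in c.del.B11 and ac.del.E4, against 64.4 and 68.0 CPM in ab.del.D10 and ab.del.D12. Its 129 copy gave 31.9 and 40.2 CPM, against 64.4 and 67.5 CPM. Cast was thus above and 129 below both ab.del libraries, and the mean of both copies, 57.2 and 66.2 CPM, overlapped the 64.4 and 67.8 CPM of ab.del. St6galnac3 gave 229 and 204 CPM on cast against 176 and 182 CPM, and 228 and 248 CPM on 129 against 300 and 376 CPM.

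Summed output was raised less in genes that made less of their RNA from cast in the 12 other libraries. The 406 genes with a cast share of 40 to 60% had median differences of 0.56 and 0.56 in the 2 pairs, where doubling cast would give 0.57. The 73 genes with a cast share of 20 to 40% had 0.22 and 0.36, below the 0.43 that doubling would give. The 14 genes at 60 to 80% had 0.63 and 0.60, below the 0.72 of doubling, and the groups beyond these limits held 5 and 2 genes. By level, the 60 genes at 1 to 3 CPM had 0.39 and 0.47, and the 58 genes at 100 CPM or more had 0.58 and 0.59. Other autosomes were also higher in the highest than in the lowest of these classes. Their medians were -0.12 in the lowest and 0.05 in the highest in the c.del.B11 pair. In the ac.del.E4 pair these were -0.04 and 0.03. The part of this difference in the chromosome 3 slope was not tested.

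The change spanned the whole measured chromosome. The 500 genes lay between chr3:5218554 and chr3:159938666 in mm10 and filled 16 windows of 10 Mb, with 11 to 71 genes each. In all 16 windows the 129 share of both libraries was below that of both ab.del libraries. The highest window share in the 2 libraries was 39.8%, and the lowest in ab.del was 48.1%. Window medians of the cast difference ran from 0.88 (50 to 60 Mb) to 1.10 (110 to 120 Mb) in c.del.B11. They ran from 0.71 (0 to 10 Mb, 11 genes) to 1.16 (50 to 60 Mb) in ac.del.E4, where the next window, with 17 genes, stood at 0.81. On 129 they ran from -0.32 to 0.02 in c.del.B11 and from -0.17 to 0.03 in ac.del.E4. No window returned to 0 on cast.

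**Figure D3:**
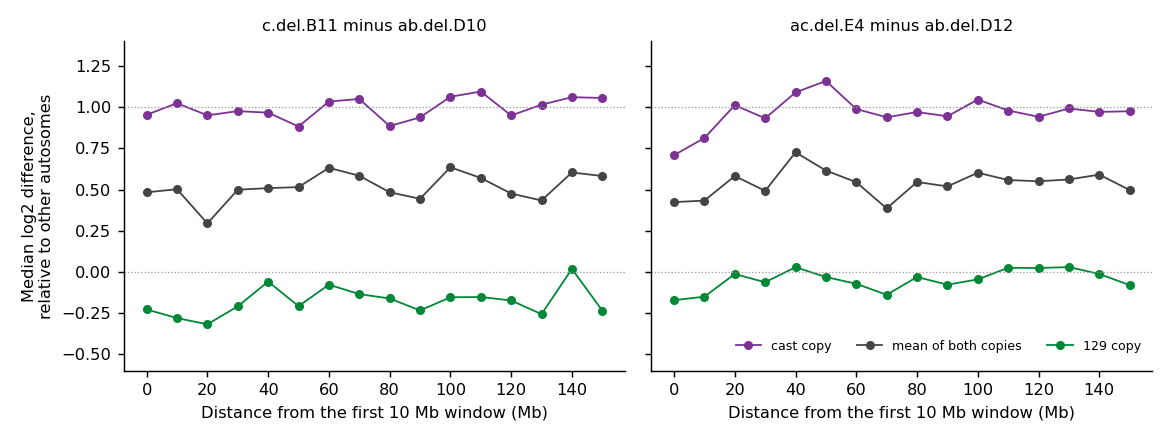
Median log2 difference of chromosome 3 genes, relative to other autosomes (y axis), in 16 windows of 10 Mb along the chromosome (x axis, distance from the first window in Mb), for c.del.B11 minus ab.del.D10 (left) and ac.del.E4 minus ab.del.D12 (right). Cast medians lie between 0.71 and 1.16, those of the mean of both copies between 0.29 and 0.73, and 129 medians between -0.32 and 0.03; dotted lines mark 0 and 1.

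The most transcribed genes of the chromosome showed the pattern in single values. Jade1, a subunit of a histone acetyltransferase complex, gave 1139 and 1499 CPM on cast in c.del.B11 and ac.del.E4, against 581 and 793 CPM in ab.del.D10 and ab.del.D12. Its 129 copy gave 583 and 737 CPM, against 690 and 804 CPM. The cast values lay above both ab.del libraries and the 129 values overlapped with theirs. Tet2, an enzyme that oxidises methylated cytosine and is active in embryonic stem cells, gave 754 and 974 CPM on cast against 308 and 440 CPM, and 379 and 475 CPM on 129 against 363 and 462 CPM. Both copies together gave 566 and 724 CPM for Tet2, against 335 and 451 CPM, a relative difference of 0.81 in the first pair and 0.76 in the second. Elovl6, a fatty acid elongase, gave 923 and 693 CPM as the mean of both copies, against 715 and 462 CPM, and its libraries overlapped although both pairs were higher, by 0.43 and 0.66. Tpd52, Tbl1xr1, Zfp704, Mme, Naa15 and Schip1 completed the most transcribed set, with mean-of-both differences of 0.29 to 0.93 and cast differences of 0.75 to 1.45 over both pairs. Schip1 shares nearly all of its reads with the overlapping readthrough gene Iqschfp, so the 2 cannot be told apart.

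**Figure D4:**
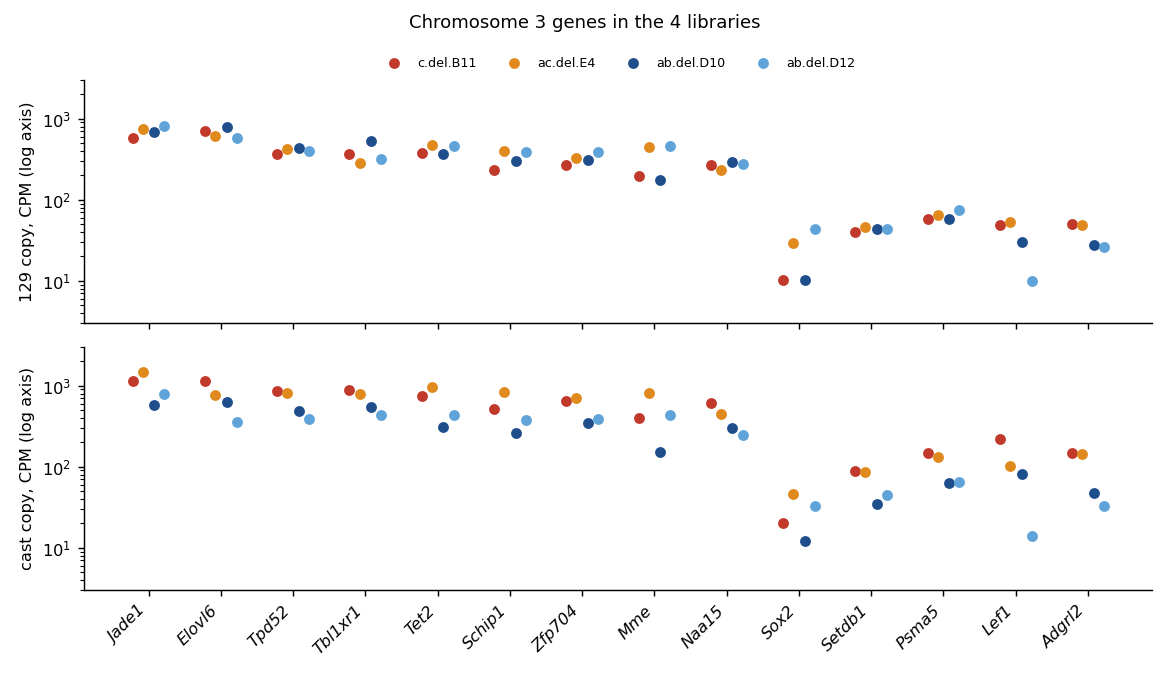
CPM of the 129 copy (upper) and the cast copy (lower) of 14 chromosome 3 genes on log axes in c.del.B11, ac.del.E4, ab.del.D10 and ab.del.D12, 1 point per library. On cast, red and orange points lie above both blue points for genes such as Tet2 (754 and 974 against 308 and 440 CPM); on 129 they lie above both blue points at Lef1 and Adgrl2 and below both at Naa15.

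Chromatin regulators on chromosome 3 were 7, and 5 of them were above both ab.del libraries on the mean of both copies, beside 48.4% of all 500 genes, with a median difference of 0.69 beside 0.54. Setdb1, the methyltransferase that silences retroelements in embryonic stem cells, gave 65.0 and 66.2 CPM against 39.2 and 44.7 CPM, above all 14 other libraries, which reached 54.2 CPM. Ash1l, a histone H3 lysine methyltransferase, gave 170 and 176 CPM against 100.0 and 112 CPM. Pogz, a heterochromatin-associated zinc finger protein, gave 94.1 and 107 CPM against 59.5 and 70.7 CPM. Cast carried these gains: its relative difference was 1.19 for Setdb1, 1.22 for Ash1l and 1.15 for Pogz, with 0.06, 0.02 and -0.03 on 129.

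The 3 proteasome subunits on the chromosome were above both ab.del libraries, as were 48.4% of all 500 genes, and their median was 0.58. Psma5, a subunit of the 20S core, gave 103 and 98.0 CPM against 60.4 and 70.6 CPM, and no other library passed 82.0 CPM. Psmd4, a ubiquitin receptor of the 19S cap, gave 16.04 and 20.5 CPM against 10.8 and 14.9 CPM, and Psmb4 of the core gave 4.96 and 5.14 CPM against 3.39 and 3.79 CPM. On the other autosomes 28 proteasome genes were fitted. Of these 2 were above and 3 below both ab.del libraries, beside 7.6% and 15.2% of all 12936 genes there. Their median was -0.06, beside -0.07 for all those genes.

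Of 3 pluripotency genes Tet2, described above, was above both ab.del libraries, beside 48.4% of all 500 genes, and the median was 0.28. Sox2, a core transcription factor of embryonic stem cells, gave 15.3 and 37.7 CPM against 11.2 and 38.2 CPM, so that ab.del overlapped with both. Its relative difference was 0.51 in the first pair and 0.06 in the second, while its cast copy gave 20.4 and 46.5 CPM against 11.98 and 33.3 CPM. Fgf2, a growth factor, was low, at 0.434 and 2.65 CPM against 0.316 and 2.66 CPM. Of 5 measured genes of FGF, ERK and WNT signalling 3 were above both ab.del libraries, beside the same 48.4% of all 500 genes. Notch2, a receptor listed with them, gave 82.2 and 94.1 CPM against 63.4 and 49.96 CPM, and Nras, a small GTPase, gave 47.6 and 70.4 CPM against 33.9 and 56.1 CPM, with overlap.

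Cell cycle genes were 4, with a median of 0.61. Plk4, the kinase that starts centriole duplication, gave 40.4 and 55.7 CPM against 26.4 and 43.0 CPM. Cenpe, a kinetochore motor, gave 87.5 and 129 CPM against 64.1 and 109 CPM, and Ccna2, cyclin A2, gave 9.41 and 12.9 CPM against 4.85 and 9.84 CPM. All overlapped except Lamtor5, at 11.8 and 16.6 against 7.65 and 10.97 CPM, beside 48.4% of all 500 genes above both ab.del libraries. Within its pair each of the 4 was higher. Zmat3, a p53 target, gave 116 and 69.5 CPM against 86.5 and 37.4 CPM, and Phgdh, the first enzyme of serine synthesis, 56.2 and 33.9 CPM against 52.3 and 20.1 CPM. The 2 chaperone genes differed: Cct3 of the chaperonin gave 84.6 and 85.4 CPM against 51.2 and 55.8 CPM, and Hspa4l 3.93 and 4.09 against 4.29 and 1.98 CPM. None of 4 ribosomal protein genes was above both ab.del libraries, beside 48.4% of all 500 genes, although their median was 0.53. H2afz, a histone variant gene, gave 12.6 and 22.8 CPM against 5.44 and 17.3 CPM. Germline genes on the chromosome (Slc25a31, Tdrkh, Hormad1, Sycp1) stayed low, at 0.141 to 7.09 CPM in the 2 libraries, with a median of 0.23.

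A few genes departed from the chromosome. Lef1, a transcription factor of WNT signalling at chr3:131110297-131224357, gave 134 and 77.6 CPM against 55.4 and 11.99 CPM, and 2.83 to 55.4 CPM in the other 14 libraries. Both copies were higher, by 1.66 on 129 and 2.18 on cast. Adgrl2, an adhesion receptor at chr3:148815586-148954635, gave 100.4 and 96.6 CPM against 37.2 and 29.6 CPM, and at most 66.5 CPM in the other 14. Its difference was 0.99 on 129 and 1.94 on cast, so both copies were higher than in ab.del. F3, tissue factor, gave 9.60 and 8.06 CPM against 3.04 and 3.50 CPM, Rfxap 2.13 and 2.33 against 0.539 and 1.20 CPM, and 1500004A13Rik 1.12 and 9.54 against 0.159 and 0.976 CPM. At the other end Zfhx4, a zinc finger and homeobox gene, gave 2.54 and 2.09 CPM against 8.09 and 4.79 CPM. Slc7a11, the cystine transporter, gave 1.05 and 2.19 CPM against 2.58 and 6.92 CPM, and Sh3d19 gave 3.88 and 7.02 CPM against 9.51 and 12.9 CPM. Slc7a11 was lower on both copies, by -1.50 on 129 and -1.20 on cast, while Zfhx4 was lower mainly on 129, at -2.25 against -0.61. A330015K06Rik and Ovgp1 were also among the lowest, both under 1 CPM in the 2 libraries. These genes were picked as the extremes of this contrast, so their values carry no test.

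Calls among genes of the other autosomes depended on the tool and on the deposit block. With limma on the mean of both copies, 0 of 12936 genes (0%) passed a Benjamini-Hochberg adjusted p of 0.05, and 170 (1.31%) had an unadjusted p under 0.05. edgeR called 0 genes and DESeq2 called 3, Dnmt3l, Ncald and Oas1a. On 129 limma called 0 of 12837 genes (0%), with 215 at an unadjusted p under 0.05, and on cast 0 of 12718 (0%), with 184. On the copies alone edgeR called 0 genes, and DESeq2 called 5 on 129 (Dnmt3l, Rgs6, Dppa4, Dppa2, Morc1) and 5 on cast (Rap1gap2, Meis2, Igsf21, Oas1a, Triml2). Dppa4, Dppa2 and Morc1 belong to the edited locus described below. The 2 ab.del libraries differed from each other more than from their partners: over 10317 genes with a mean of at least 1 CPM the SD of the log2 difference was 0.760 for D12 minus D10, 0.481 for c.del.B11 minus D10 and 0.411 for ac.del.E4 minus D12. Deposit block moves with that spread, since D10 and D12 lie in different blocks.

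With deposit block as a covariate limma called 603 genes, 229 higher (1.77%) and 374 lower (2.89%). On the copies alone it called 32 genes higher (0.249%) and 42 lower (0.327%) on 129, and 44 higher (0.346%) and 61 lower (0.48%) on cast. These fits have 1 residual degree of freedom. On the mean of both copies limma took the spread of every gene of a given level from the trend over all genes, and without that trend 0 genes were called on any measure. edgeR with the block called 534 genes, 459 of them shared, but split them as 298 higher and 236 lower. It also rescaled the libraries, which limma did not. The median difference of all fitted genes of the other autosomes was -0.01 with edgeR and -0.07 with limma. The part of this offset in the split between directions was not tested. Of the 603 genes 592 moved the same way on each copy, 396 had libraries that did not overlap, and 157 differed by at least 1. The calls rest on the mean of both copies in the same libraries, so these counts are partly built in and carry no test. Over all 12936 genes 7.6% were above and 15.2% below both ab.del libraries, on CPM without rescaling. Calls fell on every autosome, from 2.19% of genes on chromosome 16 to 7.33% on chromosome 10. The 2 pairs, which share no library, had a Pearson correlation of 0.31 over 10317 genes (Spearman 0.27). The pairs need not be independent, since nothing says that c.del.B11 and ac.del.E4 arose separately. Both have the chromosome 3 imbalance, a 129 chromosome X and the chromosome 13 stretch described below. Here 29 genes were more than 1 higher in both pairs, 44 more than 1 lower, and 8 opposite.

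**Figure D5:**
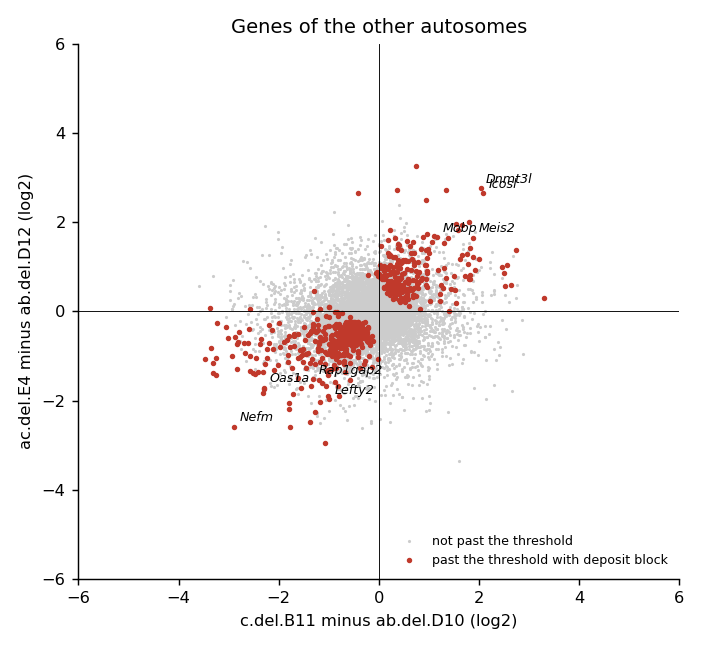
Log2 difference of the mean of both copies for 12935 genes of other autosomes in the c.del.B11 pair (x axis) and the ac.del.E4 pair (y axis); 603 red genes passed limma with deposit block as a covariate and grey genes did not. Dnmt3l and Icosl lie at the upper right and Nefm at the lower left; without the block 0 genes passed.

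Dnmt3l, the catalytically inactive partner of the de novo DNA methyltransferases, gave 8.38 and 19.7 CPM against 1.97 and 2.82 CPM in ab.del, and 1.47 to 7.24 CPM in the other 14 libraries. Both libraries were above all 14. Its log2 difference was 2.40 (SE 0.52, limma adjusted p = 1, with deposit block SE 0.26 and adjusted p = 1.76e-16). On 129 it was 2.54 and on cast 2.30, with limma block adjusted p of 0.0092 and 0.0038. The p-value for the mean of both copies took its spread from the trend over all genes, as said above. The library b.del.D10, with a 129 chromosome X and a balanced chromosome 3, was at 4.52 CPM, and c.del.A12 at 4.44 CPM. Icosl (chr10:78069368-78079525) and Aire (chr10:78030022-78043610), which flank Dnmt3l (chr10:78042287-78063622), were also among the 10 that differed most upward with the block. Icosl, a costimulatory ligand, gave 2.69 and 8.18 CPM against 0.559 and 1.22 CPM, and Aire, a transcription regulator of the thymus, 3.71 and 3.91 CPM against 1.89 and 0.607 CPM. Aire, on the opposite strand, overlaps the start of Dnmt3l, and the libraries were strand-specific. Both copies of Icosl were higher, by 2.32 on 129 and 2.43 on cast.

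Mobp, a myelin protein gene, and Ak4, an adenylate kinase, had the next smallest p-values among higher genes. Mobp gave 21.1 and 30.9 CPM against 9.38 and 9.70 CPM, above all 14 other libraries. Ak4 gave 72.2 and 85.1 CPM against 37.6 and 41.6 CPM, inside the 26.5 to 101.6 CPM of the others. Among lower genes Ncald, a neuronal calcium sensor, gave 5.59 and 6.59 CPM against 16.5 and 21.96 CPM, below all 14 others (10.4 to 39.4 CPM). Rap1gap2, a RAP1 GTPase activator, gave 12.1 and 11.1 CPM against 30.2 and 31.9 CPM, and Igsf21 12.3 and 16.4 CPM against 34.0 and 39.9 CPM. All 5 had a limma adjusted p of 1 without the block and passed with it.

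Further genes were the 10 in each direction that differed most among block calls whose libraries did not overlap, a use of the block that was chosen after the data were seen. Meis2, a homeobox gene, gave 42.1 and 85.0 CPM against 11.4 and 26.9 CPM, inside the 4.41 to 125 CPM of the others. Oas1a, an interferon-induced oligoadenylate synthetase, gave 7.00 and 16.2 CPM against 34.8 and 53.0 CPM, with 13 of 14 libraries above both. Nefm, a neurofilament gene, gave 0.0606 and 0.572 CPM against 1.09 and 3.93 CPM. Rgs6, a regulator of G protein signalling, gave 6.61 and 10.5 CPM against 2.56 and 1.52 CPM. The remaining higher genes (Htr7, Zfp677, Sorbs2os, Abcb5, Itga2) and lower genes (Kank4os, G730013B05Rik, Atp1b2, Fermt3, Hist1h2bl, Anxa1, Prss8, Sh2d5) reached at most 2.29 CPM in these 4 libraries, in Kank4os. Of these, edgeR with the block did not call Abcb5, Atp1b2, Anxa1, Prss8 or Sh2d5.

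Medians of the named groups of the other autosomes are read beside that of all genes there, -0.07, and their calls beside the 1.77% of all genes called higher and 2.89% called lower. Of 27 pluripotency genes the block fit called 3 higher and 3 lower, with a median of -0.05. Lefty2, a NODAL antagonist, gave 8.91 and 5.80 CPM against 17.8 and 23.1 CPM, and Lifr, the LIF receptor, gave 117 and 168 CPM against 163 and 248 CPM, with overlap. Prdm14, a repressor of lineage genes, gave 22.5 and 28.2 CPM against 33.2 and 37.4 CPM. The calls upward were Il6st and, at the edited locus on chromosome 16, Dppa2 and Dppa4, all described below. Esrrb, Tfcp2l1, Zfp42 and Nanog, all highly transcribed, were not called, with differences of -0.14, 0.01, 0.05 and -0.10.

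Of 22 genes of endoplasmic reticulum and amino acid stress, 4 were called lower and 0 higher with the block (2.89% and 1.77% of all genes), and their median was -0.20. Atf4, the transcription factor at the head of that response, gave 0.883 and 2.09 CPM against 2.27 and 4.89 CPM. Trib3, its target, gave 1.18 and 4.35 CPM against 3.54 and 7.84 CPM. Atf3 gave 0.285 and 2.73 CPM against 3.50 and 3.28 CPM, and Psat1 of serine synthesis 91.3 and 97.9 CPM against 162 and 98.6 CPM. Asns, the most transcribed of the list, was not called, at 145 and 250 CPM against 172 and 215 CPM. All 4 called genes also passed edgeR with the block, and none passed either tool without it.

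In FGF, ERK and WNT signalling 5 of 21 genes were called, 4 of them higher (1.77% of all genes). Of the 21 genes 2 were above and 3 below both ab.del libraries, beside 7.6% and 15.2% of all genes. Etv4, a transcription factor downstream of ERK, gave 3.99 and 12.1 CPM against 1.06 and 6.88 CPM, Spry4, a feedback inhibitor, 7.41 and 42.9 against 4.27 and 29.9 CPM, Dusp4 1.60 and 2.53 against 0.397 and 1.15 CPM, and Fgfr1 41.3 and 50.9 against 29.4 and 36.1 CPM. Fgfr1 and Dusp4 lie on chromosome 8, whose median on the mean of both copies was 0.13 in the c.del.B11 pair and 0.02 in the other.

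The remaining lists held few calls with the block. Trp53inp1, at 40.1 and 71.6 CPM against 37.4 and 43.4 CPM, was the called gene among 21 p53 targets, while Trp53 and Cdkn1a had differences of -0.04 and -0.18. Among 24 chaperone genes Hsp90ab1 was called lower, and among 33 cell cycle genes Ccnd3. Of 46 replication and repair genes Brca2 and H2afx were lower, and of 28 chromatin regulators Dnmt1, Uhrf1 and Prdm16. Dnmt1, the maintenance DNA methyltransferase, gave 112 and 115 CPM against 138 and 151 CPM, and its partner Uhrf1 67.5 and 90.6 CPM against 90.1 and 120 CPM. Of 43 ribosomal protein genes 3 were lower (Rps7, Rps15, Rpl14). Among 17 germline genes 1 was higher (Ddx4, of the chromosome 13 stretch described below) and 2 lower (Tex14, Stag3), with a median of -0.24. However, 4 of the 17 were above both ab.del libraries and 1 below, beside 7.6% and 15.2% of all genes. Of 12 replication-dependent histone genes, with a median of -0.34, Hist1h1a was lower, and 0 of the 12 were above or below both ab.del libraries. Primed and lineage genes (10), CTCF and cohesin (10) and two-cell stage genes (3 fitted) had no call. Dab2, a primitive endoderm marker, was called lower, at 3.66 and 8.87 CPM against 7.84 and 11.3 CPM. Among these list calls edgeR with the block did not call Prdm14, Hsp90ab1, Brca2, Dnmt1, Tex14, Stag3, Rps7, Rpl14 or Dab2.

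Dppa4, Dppa2 and Morc1, neighbours on chromosome 16, differed on the 129 copy. They are taken here as the edited locus, since the 6 segments the authors drew bear their names. The part of the deleted sites in these values was not tested. Dppa4, an early embryonic chromatin factor, gave 13.7 and 13.7 CPM on 129 in the 2 libraries and 0 reads in both ab.del libraries. Its cast copy gave 18.3 and 21.5 CPM against 19.06 and 21.8 CPM. Morc1 gave 90.04 and 115 CPM on 129 against 17.3 and 34.1 CPM, and Dppa2 17.5 and 0.888 CPM against 0.104 and 0.129 CPM.

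A short stretch of chromosome 13 carried the same kind of imbalance as chromosome 3 in the same 2 libraries. It was found after the cast-sided values of Il6st and Plpp1 were seen, by scanning 7552 autosomal genes with at least 50 reads in every library and a median 129 share of 30 to 70% for runs whose share, as a median over 5 neighbouring genes, departed by over 10 points from the median of the 16 libraries. Runs of at least 5 such genes numbered 17, and the only ones in c.del.B11 or ac.del.E4 lay on chromosome 3 and at chr13:111686178-112867894 in mm10. The run started at Mier3 in both libraries, and ended at Plpp1 in c.del.B11 and at Slc38a9, which ends at 112738752, in ac.del.E4. Over its 6 balanced genes the 129 copy supplied 37.1% of reads in c.del.B11 (Wilson 36.6 to 37.7%) and 36.5% in ac.del.E4 (36.1 to 36.9%). The other 14 libraries lay between 51.4% and 56.4%.

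The genes of that stretch, in order, were Mier3, Map3k1, Il6st, Il31ra, Ddx4, Slc38a9 and Plpp1. Il6st encodes gp130, the signalling chain that the LIF receptor shares with other cytokine receptors. On cast it gave 298 and 422 CPM against 140 and 236 CPM in ab.del, above the 117 to 236 CPM of all 14 other libraries. On 129 it gave 180 and 233 CPM against 209 and 246 CPM. Plpp1, a lipid phosphatase, gave 382 and 435 CPM on cast against 217 and 231 CPM, and 206 and 206 CPM on 129 against 222 and 212 CPM. Mier3, a deacetylase complex subunit, Map3k1, a kinase upstream of JNK, and Slc38a9, a lysosomal arginine sensor, had cast folds over ab.del of 1.91, 2.05 and 1.97, with 0.849, 0.988 and 0.891 on 129. Il31ra gave nearly all its reads from 129 in every library (98.9 to 99.9%) and was not among the balanced genes, and Ddx4 varied from 25.2% to 70.9% in the other 14.

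The nearest measured gene on each side of the stretch was balanced. Gpbp1, the measured gene before it, was at 52.4% and 53.7% from 129 in the 2 libraries, within the 51.9 to 58.1% of the others. Skiv2l2, on the minus strand, extends down to chr13:112867780 and overlaps the end of Plpp1. It was at 55.9% and 53.8%, within 51.8 to 56.2%. Dhx29, the next gene, went the other way, at 64.7% and 68.1% against 55.1 to 62.8% in the others, with a cast fold over ab.del of 0.729. Snx18, further on, was at 68.4% and 67.8%, within 57.8 to 69.7%, with a cast fold of 0.656. The stretch is 1.18 Mb long from the first to the last gene. Mier3, Map3k1, Il6st, Il31ra, Ddx4 and Plpp1 were called higher with the block on the mean of both copies by limma and by edgeR. Il31ra was lower in the c.del.B11 pair, at 723 against 962 CPM, and higher in the ac.del.E4 pair, at 293 against 46.5 CPM. Its cast copy gave 2.28 and 0.452 CPM against 1.87 and 1.04 CPM, a cast fold over ab.del of 0.938. For the other called genes the part of the cast excess was not tested.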

How the data were processed

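Per the labels' protocols, 300 ng of captured RNA went into strand-specific libraries read as 100 bp single ends. The submitters' processing notes name Bowtie2, bedtools and the build mm10, with no version. The deposited table is named RPKM, but its 2 columns per library hold CPM by the authors' scaling: each sums to 1000000 over all lines and divides into whole reads (within 0.01) for 100% of values. The widest row per symbol was used, without the 6 segments the authors drew. A floor of 3 reads is 0.0833 to 0.296 CPM on 129 and 0.0905 to 0.329 CPM on cast.

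Chromosome 3 values are descriptions over genes with a mean of at least 1 CPM on each copy. Other autosomes were fitted with all autosomal genes of a mean of at least 0.2 CPM by limma 3.58.1 (trended eBayes, two-sided, log2(CPM + 0.1), Benjamini-Hochberg), 2 libraries against 2. On recovered reads edgeR 4.0.16 and DESeq2 1.42.0 were alternatives. Named chromosome 3 genes are the 10 most transcribed, the 5 largest and 5 smallest differences and up to 4 members of each list; elsewhere the 3 smallest p-values each way and list members. Scripts were tested on simulated data. The libraries, members and lists were chosen with earlier results of these data known, and no DNA copy number was analysed here. The result for 1 gene of the signalling list is not reported here.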

Additional observations from a re-analysis of the deposited data

How the results depend on the processing

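Over the alternatives tried no chromosome 3 median changed sign. The cast median of 0.99 was 0.93 with a pseudocount of 1, 0.95 when not set relative to other autosomes and 0.96 with F121-9 as the reference, and lay between 0.96 and 0.99 with each library left out in turn. The mean-of-both median of 0.54 was 0.47 when not relative and 0.47 to 0.56 with a library left out. The 129 median of -0.10 lay between -0.21 (without ac.del.E4) and -0.03 (without c.del.B11), and was -0.19 when not relative. With every table row the 129 share was 32.9% in c.del.B11 and 35.6% in ac.del.E4, and as a median over genes 32.8% and 35.1%. The 28 genes not raised by 0.2 were 44 with a limit of 0.3 and 6 at a mean of at least 10 CPM, and 11 lay within 0.2 on both sides, a limit chosen after seeing the data.

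On the other autosomes the count of calls, 0 on each measure, depended on the block and the reference. On the mean of both copies it was 3 with DESeq2, 603 with the deposit block and 74 with F121-9 as reference, and 0 to 1 with a library left out, the 1 being Il31ra without ab.del.D10. Settings chosen after seeing the data gave 534 with edgeR and the block, 400 with the block and a pseudocount of 1, 513 at a mean of at least 1 CPM and 599 without chromosome 8. On 129 the counts were 1 with median centring (Dppa4), 5 with DESeq2, 74 with the block, 1 with F121-9 and abc.del added (Dppa4), 77 with F121-9 as reference, then 224, 155, 151 and 69 for those later settings in the same order. On cast they were 5, 105 and 121 with DESeq2, the block and F121-9, then 417, 182, 198 and 103. With the block and eBayes without trend 0 genes were called on each measure. The prior degrees of freedom, which limma borrows from all genes, were then 2.14 on the mean of both copies, 1.71 on 129 and 1.63 on cast. With trend they were infinite, 10.4 and 7.75 in that order, beside 1 residual degree of freedom. The part of this change in the loss of calls was not tested. The labels give no pairing of libraries, since F121-9 alone carries replicate numbers. Each deposit block holds 1 library of each side, so the fit with the block compares within the 2 pairs. The block is a run of sample numbers, not a replicate number. With 2 libraries a side, genes near 1 CPM rest on few reads.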

Other observations

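The same size of cast excess was present on other chromosomes of other libraries. Chromosome 8 gave 35.1% of its reads from 129 in a.del.53 and 35.7% in 4k.b.c.G12, and chromosome 7 gave 36.7% in 4k.b.c.G12. Against F121-9 and relative to the remaining autosomes, the cast median of chromosome 8 was 1.07 (562 genes) in a.del.53 and 0.97 in 4k.b.c.G12, and that of chromosome 7 was 1.07 (793 genes). The 129 medians were 0.06, -0.01 and 0.10 in the same order, and those of the mean of both copies 0.65, 0.53 and 0.62. On chromosome 8 of c.del.B11 the values were smaller, 0.23 on cast and -0.07 on 129.

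The 2 libraries a.del.53 and 4k.b.c.G12 also gave 99.8% and 99.7% of chromosome 1 reads from 129 and 0.44% and 0.457% of chromosome 12 reads. In all, 9 of 304 combinations of library and autosome lay more than 10 points from that autosome's median share, 2 of them on chromosome 3.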
